A study of Mus musculus with 7 samples.

Results

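SOX2 and RNA polymerase II (POLII) were compared across 99134 regions of the mouse genome, each a stretch covered by at least 1 peak of SOX2 or POLII chromatin immunoprecipitation sequencing (ChIP-seq). The regions were made by merging all peaks of 4 peak lists, from 2 biological replicates of each antibody, wherever peaks shared 1 bp or more. They were 99134 of the 115440 regions that resulted when the C-MYC peaks of the same study were merged in as well. Of the 99134 regions, 30271 held a peak of a SOX2 replicate and of a POLII replicate, and 2928 held a peak in all 4 lists.

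ChIP-seq uses an antibody to pull down a protein with the DNA fragments it sits on, these fragments are sequenced as tags, and peaks are called where tags pile up above background. SOX2 is a transcription factor with an HMG-box DNA-binding domain that keeps neural and inner ear progenitors in their precursor state, and it binds promoters as well as enhancers. POLII transcribes messenger RNA genes, so its ChIP signal collects at active promoters and extends along the bodies of strongly transcribed genes.

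The chromatin came from immortalized multipotent otic progenitor (iMOP) cells, a mouse line made from cochlear progenitors with a *c-Myc* retrovirus, so both antibody groups share it. The cells were grown in suspension as otospheres in DMEM/F12 with B27 and 20 ng/ml of bFGF, without any other treatment. POLII was precipitated with clone 4H8 and SOX2 with clone 6F1.2. The cells are an immortalized line, which limits them as a model of the otic progenitors of the embryo. The labels do not say which iMOP cell line or passage each replicate came from.

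For each region and list, the tags of its peaks were summed and divided by all tags in peaks of that list, and the result is given as tags per 100000 tags in peaks. Total reads per library are unknown, so depth can be given only for the tags inside peaks. POLII replicate 1 had 53528 peaks with 1705241 tags, and POLII replicate 2 had 31796 peaks with 4488517 tags. SOX2 replicate 1 had 39878 peaks with 2758044 tags, and SOX2 replicate 2 had 26637 peaks with 1784465 tags. POLII replicate 1 therefore had the most peaks and the fewest tags, with a median of 23 tags per region, against 69 in POLII replicate 2, 35 in SOX2 replicate 1 and 49 in SOX2 replicate 2. A region without a called peak has no value rather than a measured 0, because the lists hold only peaks that passed the authors' caller, and the fewest tags of any region were 12, 12, 10 and 13 in these lists.

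The lists of 1 antibody were not alike, and this bears on every value that follows. POLII replicate 1 shared few regions with the others, and 79.2% of its regions held no peak of another list, against 20.3% for POLII replicate 2, 27.3% for SOX2 replicate 1 and 25.1% for SOX2 replicate 2. Only 0.435% of the peaks of POLII replicate 1 were on chromosome X, against 1.82% to 2.21% in the other lists. SOX2 replicate 2 held 6.06% of its tags in a block of 7 Mb on distal chromosome 6, against 0.319% to 1.69% in the other lists. Whether these features have a part in the relations below was not tested, except that the relations were recomputed without this block and without the sex chromosomes. SOX2 replicate 1 was more like POLII replicate 2 than like SOX2 replicate 2, as described below, and the identity of these libraries was left as labelled without a check. Each SOX2 replicate was therefore set against each POLII replicate apart, which gives 4 pairs that share lists and are not independent.

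SOX2 peaks were more frequent where POLII signal, taken as tags, was stronger, in all 4 pairs. The share of regions with SOX2 differed widely between POLII replicates. The regions of each POLII replicate were ranked by POLII tags and cut into 5 bins of equal size, or quintiles. In POLII replicate 2 the median region had 19 tags in the lowest quintile and 364.5 in the highest, a 19.2-fold range. In POLII replicate 1 the medians were 14 and 57 tags, a 4.07-fold range. The POLII fold enrichment over background that the authors gave moved differently in the POLII replicates. Its median fell from 8.78 in the lowest to 5.44 in the highest quintile of POLII replicate 1. In POLII replicate 2 it was 7.84 in the lowest and 10.845 in the highest. Regions of POLII replicate 1 with more tags were thus less enriched.

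From the lowest to the highest quintile of POLII replicate 2, a peak of SOX2 replicate 1 was present at 39.6%, 56.5%, 68.5%, 86.7% and 95.0% of the regions. SOX2 replicate 2 was present at 35.1%, 47.3%, 54.3%, 56.4% and 71.8% of the same regions. Both SOX2 replicates rose at each step, and SOX2 was absent from most of the weakest POLII sites but present at most of the strongest. Ranked by POLII replicate 1, SOX2 replicate 1 was present at 7.68%, 12.1%, 16.8%, 23.4% and 30.0% of regions. SOX2 replicate 2 was present at 3.66%, 5.25%, 7.47%, 10.7% and 13.6% of them. These shares also rose at each step, from a far lower start.

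The difference between the highest and the lowest quintile was 55.4 and 36.7 percentage points for SOX2 replicates 1 and 2 over POLII replicate 2, and 22.3 and 9.98 points over POLII replicate 1. The mean was 31.1 ± 19.6 points (SD, n = 4 pairs), and 16.0 points without POLII replicate 2. With the 50% of each list that had the highest score, the rise of SOX2 replicates 1 and 2 over POLII replicate 2 shrank to 32.6 and 0.707 points, and with POLII ranked by fold enrichment the rises of SOX2 replicates 1 and 2 over POLII replicate 1 shrank to 1.75 and 0.935 points. As a ratio, presence rose 2.40-fold and 2.05-fold over POLII replicate 2 and 3.90-fold and 3.72-fold over POLII replicate 1, so the pair with the smallest rise in points was among those with the larger fold. The 95% Wilson intervals were narrow, for example 94.5% to 95.5% for SOX2 replicate 1 in the highest quintile of POLII replicate 2. They cover counting error over regions only, and regions of 1 library are not replicates, so the spread between lists sets the precision.

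**Figure D1:**
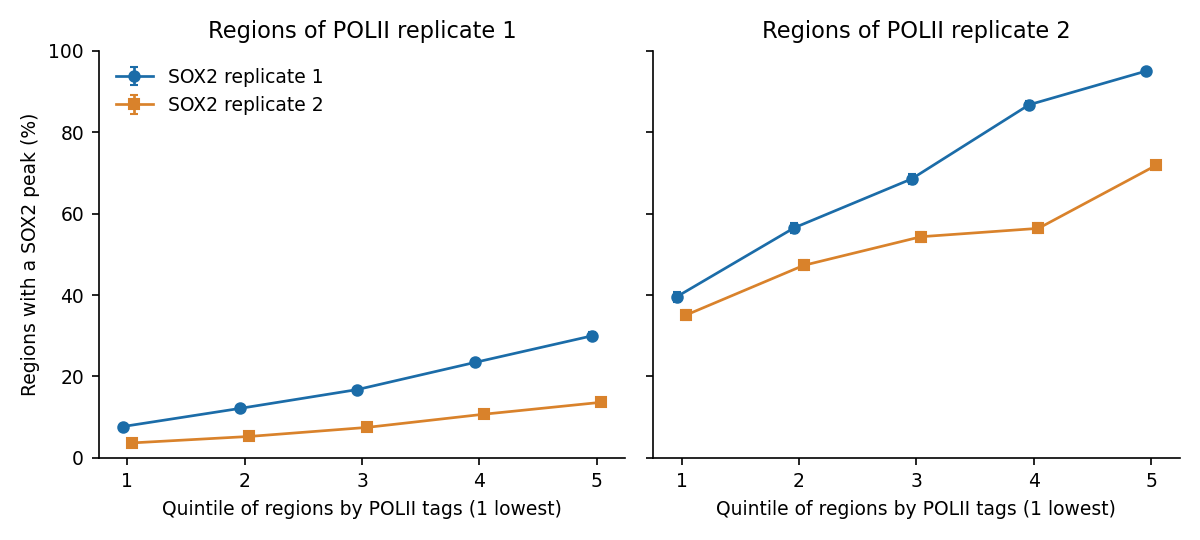
Share of regions with a SOX2 peak (%, y axis) in quintiles of the regions ranked by POLII tags (x axis, 1 lowest), for POLII replicate 1 (left) and POLII replicate 2 (right). Circles are SOX2 replicate 1, squares SOX2 replicate 2, and bars the 95% Wilson intervals, mostly hidden by the symbols. All 4 lines rise, to 30.0% and 13.6% on the left and to 95.0% and 71.8% on the right.

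A rise was also seen among POLII peaks of like length. Long regions offer more bases for a SOX2 peak to touch, and the median POLII peak grew from 411 to 1583.5 bp between the lowest and highest quintile of POLII replicate 2 and from 393 to 1132 bp in POLII replicate 1. When the regions were first cut into 5 classes of POLII peak length and the quintiles were drawn within each class, the difference was still positive in all 5 classes of all 4 pairs. It ranged from 29.0 to 47.2 points for SOX2 replicate 1 and from 18.9 to 41.2 points for SOX2 replicate 2 over POLII replicate 2. Over POLII replicate 1 it shrank to between 5.60 and 10.8 points for SOX2 replicate 1 and between 0.507 and 3.69 points for SOX2 replicate 2.

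Strong POLII sites without any SOX2 peak were few in POLII replicate 2 and numerous in POLII replicate 1. In the highest quintile of POLII replicate 2, 209 regions (3.31%) held no SOX2 peak and 4435 (70.2%) held a peak of both SOX2 replicates. The regions without SOX2 had broader and less dense POLII peaks, with a median length of 2752 bp and 132 tags per kb, against 1512 bp and 260 tags per kb where both SOX2 replicates had a peak. The 105 regions with SOX2 replicate 2 alone were about as broad, at 2851 bp and 163 tags per kb. Those with SOX2 replicate 1 alone had 1689 bp and 209 tags per kb. Breadth thus went with the lack of a peak of SOX2 replicate 1 and not with the lack of SOX2 in general. In POLII replicate 1, 7236 regions (67.6%) of the highest quintile held no SOX2 peak and 1205 (11.3%) held both. There the median POLII peak length was 1146 bp without SOX2 and 1091 bp with both, so the contrast in breadth was not seen in this list.

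Where both proteins had a peak, SOX2 signal rose with POLII signal in each pair, but from almost in step in one pair to weakly in the others. Over the 21899 regions with a peak of SOX2 replicate 1 and POLII replicate 2, Spearman's rho of their shares of tags was 0.868. Over the 16746 regions of SOX2 replicate 2 and POLII replicate 2 it was 0.438. It was 0.248 over 9626 regions of SOX2 replicate 1 and POLII replicate 1, and 0.173 over 4360 regions of SOX2 replicate 2 and POLII replicate 1. All points of a pair come from the same 2 libraries and share their depth and the length of the region, so the values are descriptions and carry no p-value. Their mean was 0.432 ± 0.312 (SD, n = 4 pairs).

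The slope of log2 SOX2 share on log2 POLII share was 0.71 for SOX2 replicate 1 over POLII replicate 2, so that each doubling of POLII went with 1.64 times the SOX2 tags. For the other pairs the slope was 0.25 (SOX2 replicate 2 over POLII replicate 2), 0.28 (SOX2 replicate 1 over POLII replicate 1) and 0.22 (SOX2 replicate 2 over POLII replicate 1), or 1.17 to 1.22 times the SOX2 tags per doubling. A slope below 1 does not by itself show a rise less than in proportion, since POLII shares that are noisy and SOX2 peaks that must pass the caller both flatten a least-squares line.

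The median SOX2 tags per region show the rise by quintile. Over the quintiles of POLII replicate 2, SOX2 replicate 1 had medians of 23, 34, 54, 95 and 190 tags, an 8.26-fold rise. SOX2 replicate 2 had 35, 51, 72, 84 and 75 tags, so it rose over the lower 4 quintiles and was lower again in the highest. Across the quintiles of POLII replicate 1, SOX2 replicate 1 had 16, 20, 23, 28 and 36 tags and SOX2 replicate 2 had 33.5, 42, 49, 52 and 51 tags.

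A finer cut into 10 bins, or deciles, showed where the SOX2 replicates parted over POLII replicate 2. From the lowest to the highest decile, with POLII medians from 16 to 479 tags, SOX2 replicate 1 had medians of 20, 26, 31, 37, 47, 59, 78, 108, 153 and 245 tags. SOX2 replicate 2 had 28.5, 39, 46, 56, 65, 81, 94, 70, 64 and 85 tags. The first list climbed without a break, whereas the second climbed to decile 7, where POLII had a median of 125 tags, then dropped and had only partly recovered at the top. Among regions below the median POLII signal the rho values of SOX2 replicates 1 and 2 were close, at 0.480 and 0.525. Above the median they were 0.816 and 0.020. The tags of SOX2 replicate 2 therefore followed POLII replicate 2 only among its weaker sites, and across the stronger sites they showed almost no rank relation to POLII signal. This covers only regions where both lists had a peak. The presence of SOX2 replicate 2 still rose there, from 55.1% in decile 7 to 77.9% in decile 10. With POLII replicate 1 the rho values below and above its median were 0.154 and 0.136 for SOX2 replicate 1 and 0.156 and 0.052 for SOX2 replicate 2.

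**Figure D2:**
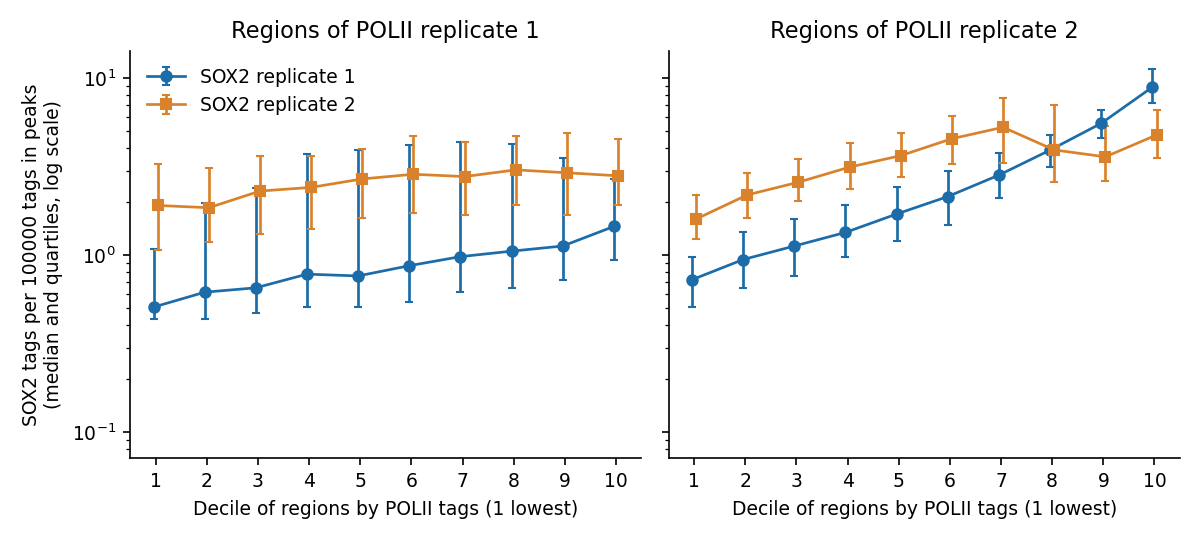
SOX2 tags per 100000 tags in peaks (y axis, log scale) in deciles of the regions ranked by POLII tags (x axis, 1 lowest), for POLII replicate 1 (left) and POLII replicate 2 (right), over regions with a peak of both lists. Circles (SOX2 replicate 1) and squares (SOX2 replicate 2) are medians and bars reach from the lower to the upper quartile. On the right, SOX2 replicate 1 rises throughout from 0.725 to 8.88, while SOX2 replicate 2 reaches 5.27 in decile 7 and 4.76 in the last.

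SOX2 peaks were also longer where POLII signal was stronger. Over the quintiles of POLII replicate 2, the median SOX2 length per region was 555, 694, 873, 1143 and 1444 bp in SOX2 replicate 1 and 625, 766, 942, 1081 and 1119 bp in SOX2 replicate 2. Set against POLII replicate 1, it was 485, 557, 621, 724 and 836 bp in SOX2 replicate 1 and 653, 731, 849, 857 and 867 bp in SOX2 replicate 2. The medians rose at each step in every pair, with the last steps of SOX2 replicate 2 over POLII replicate 1 small against the quartiles. From the lowest to the highest quintile the rise was 2.60-fold and 1.79-fold for SOX2 replicates 1 and 2 over POLII replicate 2, and 1.72-fold and 1.33-fold over POLII replicate 1.

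Spearman's rho of SOX2 length with POLII share was 0.686 and 0.501 over POLII replicate 2 and 0.300 and 0.168 over POLII replicate 1, for SOX2 replicates 1 and 2. The mean was 0.414 ± 0.227 (SD, n = 4 pairs). SOX2 length followed POLII length more closely than POLII signal in 4 of 4 pairs, with rho of 0.740 and 0.613 over POLII replicate 2 and 0.459 and 0.339 over POLII replicate 1. SOX2 peaks were the longer ones less often as POLII rose. The SOX2 peak was the longer of the pair in 79.3% of the lowest but 39.0% of the highest quintile for SOX2 replicate 1 over POLII replicate 2, and in 93.1% and 16.9% for SOX2 replicate 2. In SOX2 replicate 2 the length, like the tags, rose up to decile 7 of POLII replicate 2, where it was 1125 bp. It was 1043, 1011 and 1202 bp in the deciles after it.

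Tags per kb of called peak remove the part of the relation that length alone carries. For SOX2 replicate 1 over POLII replicate 2 the relation remained, with medians of 40.6, 47.2, 57.2, 78.8 and 131 SOX2 tags per kb over the POLII quintiles and a rho of 0.817 with POLII tags per kb. SOX2 replicate 2 over POLII replicate 2 had medians of 53.6, 62.7, 71.7, 71.4 and 66.4 tags per kb and a rho of 0.189. Over POLII replicate 1 the rho was -0.011 for SOX2 replicate 1 and 0.007 for SOX2 replicate 2, so once signal was taken per length little rank relation was left over all regions. For SOX2 replicate 1 it was inverse in subsets, at -0.286 in the 50% of each list with the highest score, -0.137 with 26637 peaks from every list and -0.264 over the regions with a peak in all 4 lists. The mean was 0.251 ± 0.388 (SD, n = 4 pairs), a spread larger than the mean. Within the 5 classes of POLII peak length, the rho of SOX2 and POLII shares of tags lay from 0.346 to 0.807 for SOX2 replicate 1 over POLII replicate 2, but from -0.228 to 0.414 for SOX2 replicate 2. Over POLII replicate 1 it lay from -0.105 to 0.046 and from -0.124 to -0.023. The rise of SOX2 signal over POLII replicate 1 was therefore not seen among peaks of like length.

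**Figure D3:**
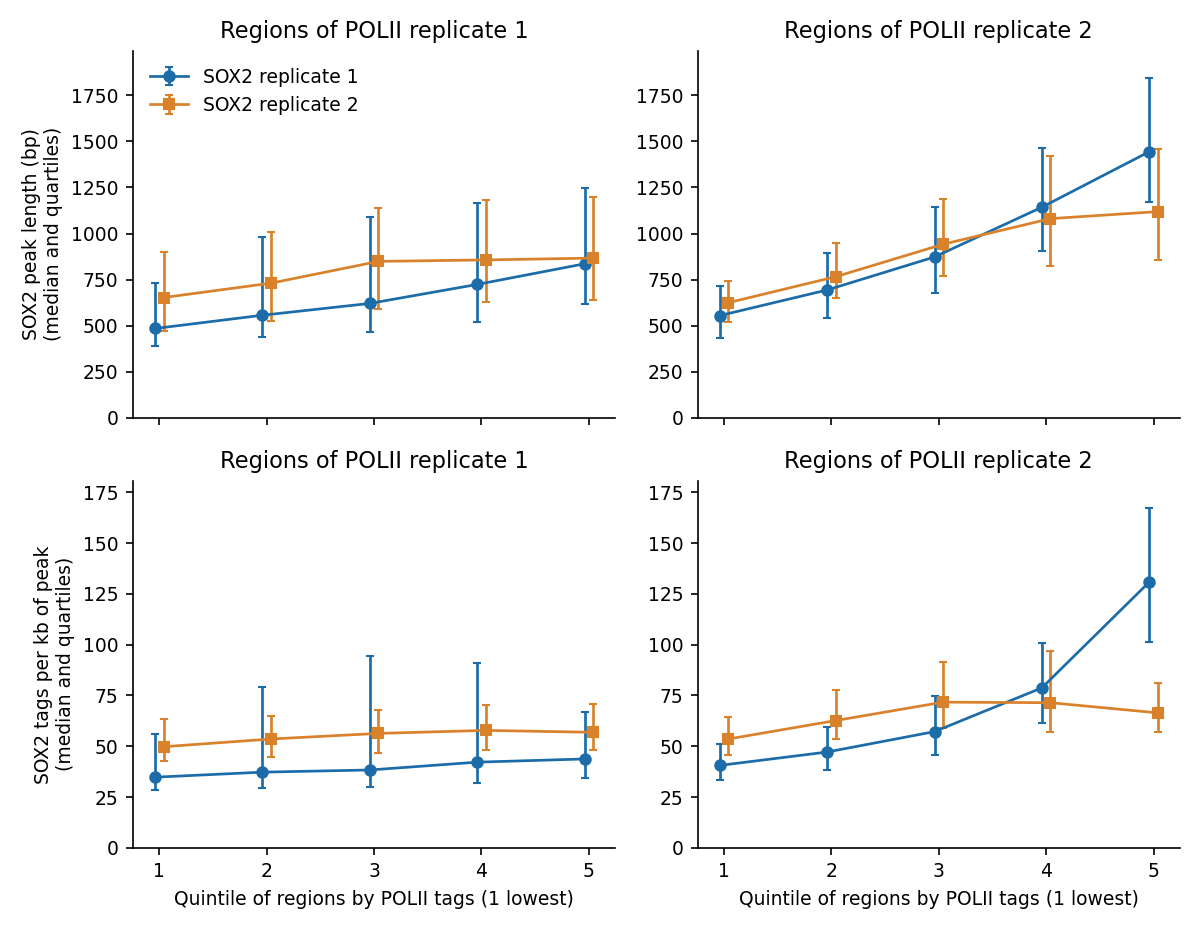
Median SOX2 peak length per region (bp, top row) and median SOX2 tags per kb of peak (bottom row) in quintiles of the regions ranked by POLII tags (x axis, 1 lowest), for POLII replicate 1 (left) and POLII replicate 2 (right). Circles are SOX2 replicate 1, squares SOX2 replicate 2, and bars reach from the lower to the upper quartile. Length rises in each panel of the top row, whereas density rises steeply, to 131 tags per kb, for SOX2 replicate 1 over POLII replicate 2 alone.

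The fold enrichment over background that the authors gave for each peak moved otherwise. Its median in SOX2 replicate 1 was 10.36, 8.99, 8.485, 9.13 and 10.31 over the quintiles of POLII replicate 2, high at both ends. In SOX2 replicate 2 it fell from 7.81 in the lowest to 5.76 in the highest quintile of POLII replicate 2. With POLII replicate 1 it fell from 10.78 to 7.94 and from 7.185 to 5.92 in SOX2 replicates 1 and 2. Stronger POLII sites thus had more SOX2 tags and longer SOX2 peaks, but not a higher median SOX2 fold enrichment when ranked by POLII tags. Set against the POLII fold enrichment instead, the SOX2 fold enrichment rose in each pair, with a rho of 0.668 and 0.180 for SOX2 replicates 1 and 2 over POLII replicate 2 and of 0.427 and 0.324 over POLII replicate 1. The background the caller used is not given in the sources used here.

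SOX2 and POLII summits lay closer where POLII was stronger in 1 pair only. Distances were taken only within merged regions, so the length of the peaks limits them and their smallness is no result. The median distance between the summits of the highest peaks in a region fell from 40 bp in the lowest to 23 bp in the highest quintile for SOX2 replicate 1 over POLII replicate 2. It rose from 44 to 110 bp for SOX2 replicate 2 over POLII replicate 2. For POLII replicate 1 it rose from 50 to 109 bp for SOX2 replicate 1 and from 119 to 172.5 bp for SOX2 replicate 2. Summits thus lay farther apart at stronger POLII sites in 3 of 4 pairs. POLII peaks were also longer there, with medians from 411 to 1583.5 bp in POLII replicate 2 and from 393 to 1132 bp in POLII replicate 1. Distance was not set against length.

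Asked the other way, strong SOX2 sites nearly always held a peak of POLII replicate 2, whereas a peak of POLII replicate 1 was no more frequent at them. From the lowest to the highest quintile of SOX2 replicate 1, POLII replicate 2 had a peak at 11.6%, 28.0%, 55.2%, 84.9% and 96.0% of regions. Over SOX2 replicate 2 it had a peak at 21.4%, 49.4%, 69.5%, 83.6% and 91.3%. Just 315 of 7943 and 463 of 5314 of the strongest SOX2 regions lacked it. POLII replicate 1 had a peak at 27.5%, 29.7%, 21.3%, 16.3% and 26.4% of the quintiles of SOX2 replicate 1 and at 18.4%, 15.7%, 15.7%, 17.5% and 14.8% of those of SOX2 replicate 2. The differences between the highest and lowest quintile were 84.4 and 69.9 points for POLII replicate 2 and -1.10 and -3.52 points for POLII replicate 1. Their mean of 37.4 ± 46.3 points (SD, n = 4 pairs) rests on POLII replicate 2 alone.

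**Figure D4:**
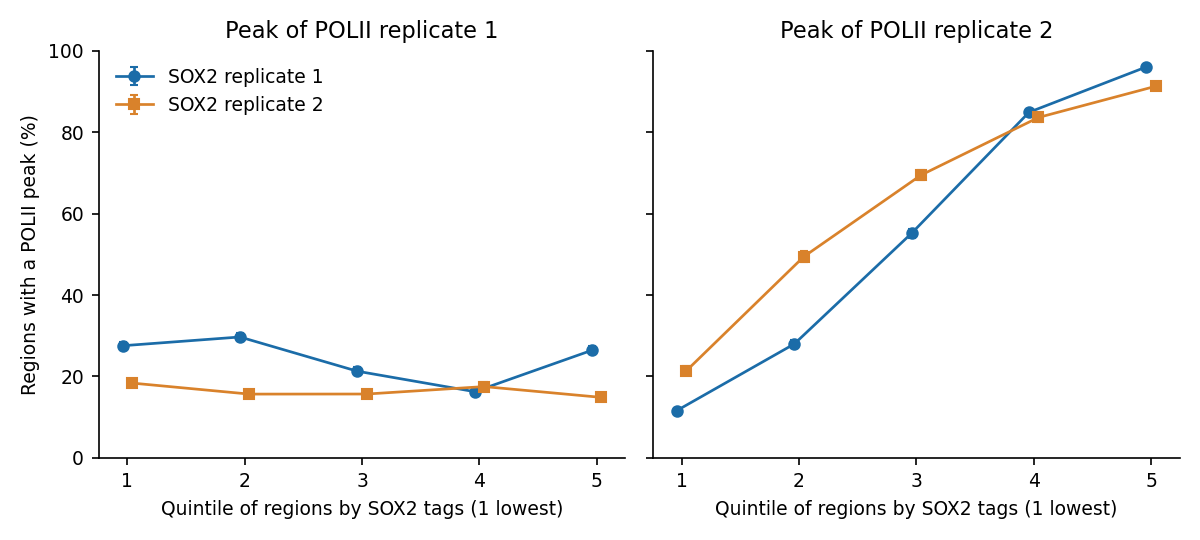
Share of regions with a POLII peak (%, y axis) in quintiles of the regions ranked by SOX2 tags (x axis, 1 lowest), for peaks of POLII replicate 1 (left) and POLII replicate 2 (right). Circles are regions of SOX2 replicate 1, squares those of SOX2 replicate 2, and bars the 95% Wilson intervals, mostly hidden by the symbols. On the right the shares climb to 96.0% and 91.3%, and on the left they end at 26.4% and 14.8%, below where they start.

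Most SOX2 tags lay in regions that also held POLII, if POLII replicate 2 is taken. Regions with a peak of POLII replicate 2 held 82.8% of the SOX2 tags and 55.1% of the SOX2 regions of replicate 1, and 75.7% and 63.0% of those of replicate 2. Regions with a peak of POLII replicate 1 held 24.9% of the tags and 24.2% of the regions of SOX2 replicate 1, and 18.6% and 16.4% of those of SOX2 replicate 2. Tags exceeded regions by a wide margin over POLII replicate 2 and by little over POLII replicate 1. Without distal chromosome 6, where 1 region held 2.27% of the tags of SOX2 replicate 2, its share of tags over POLII replicate 1 was 15.6%. The 16.4% of its regions includes that block, so these shares cover unlike sets of regions.

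The SOX2 sites without POLII were many, with few tags and short peaks. Neither POLII replicate had a peak at 12763 regions (32.1%) of SOX2 replicate 1, which held 13.1% of its tags, with a median of 18 tags and 522 bp. The same held for 8588 regions (32.3%) of SOX2 replicate 2, with 19.3% of its tags and medians of 31 tags and 607 bp. Just 15.1% and 22.4% of these regions held a peak of the other SOX2 replicate. Where POLII replicate 1 alone had a peak, SOX2 sites had as few tags, with medians of 18 and 25 tags in SOX2 replicates 1 and 2. Where POLII replicate 2 alone had a peak, the medians were 73 and 65 tags, and 64.4% and 81.9% of the regions held the other SOX2 replicate. Where both POLII replicates had a peak, they were 98 and 60 tags. The median fold enrichment did not share this order in SOX2 replicate 2, at 6.79 without POLII, 6.63 with POLII replicate 2 alone and 6.14 with both, whereas in SOX2 replicate 1 it was 8.60, 9.31 and 9.96. The SOX2 peaks that recurred between SOX2 replicates were thus mostly those at POLII replicate 2.

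The 2928 regions with a peak in all 4 lists allow the lists to be set side by side over the same sites. The shares of tags of SOX2 replicate 1 and POLII replicate 2 had a rho of 0.935 there, the highest of the 6 pairs of lists. The SOX2 replicates had 0.509 and the POLII replicates -0.136. SOX2 replicate 2 and POLII replicate 2 had 0.512, about that of the SOX2 replicates. POLII replicate 1 had -0.036 with SOX2 replicate 1 and 0.127 with SOX2 replicate 2. A SOX2 list and a POLII list were thus more alike than the replicates of either antibody. In the median region the shares of SOX2 replicate 1 and POLII replicate 2 differed by 0.32 on the log2 scale, those of the SOX2 replicates by 0.90 and those of the POLII replicates by 1.94. These 3 pairs stood in the same order per kb, where SOX2 replicate 1 and POLII replicate 2 had a rho of 0.901, the SOX2 replicates 0.304 and the POLII replicates -0.345. In the 14086 regions of SOX2 replicates 1 and 2 and POLII replicate 2, whether or not POLII replicate 1 had a peak, the rho of SOX2 replicate 1 with POLII replicate 2 was 0.882 and that of the SOX2 replicates 0.376. The lists were used as labelled. The cause of this likeness was not tested, nor was it settled whether each library is the one its label names, so the values of SOX2 replicate 1 over POLII replicate 2 carry that doubt.

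**Figure D5:**
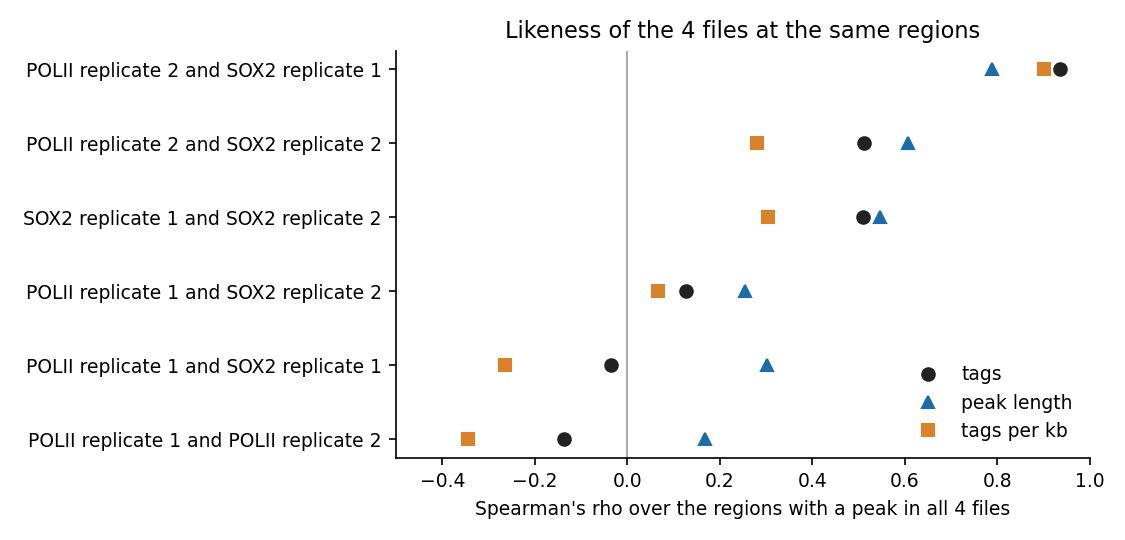
Spearman's rho (x axis) between each of the 6 pairs of peak lists (y axis) over the 2928 regions with a peak in all 4 lists, for shares of tags (circles), peak length (triangles) and tags per kb of peak (squares). POLII replicate 2 and SOX2 replicate 1 stand at the top with 0.935, 0.788 and 0.901, and the POLII replicates at the bottom with -0.136, 0.169 and -0.345.

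The relation of the leading pair held on each chromosome. Over the 20 chromosomes with at least 20 regions, the rho of SOX2 replicate 1 with POLII replicate 2 lay between 0.778, on chromosome 6, and 0.896, on chromosome 19, and the second lowest was 0.852. For SOX2 replicate 2 with POLII replicate 2 it lay between 0.045, over 323 regions of chromosome X, and 0.543, on chromosome 3, and the second lowest was 0.337. Chromosome 6 and chromosome X therefore stood apart over POLII replicate 2, each in 1 pair. With POLII replicate 1 the ranges were 0.107 to 0.365 for SOX2 replicate 1 and 0.053 to 0.406 for SOX2 replicate 2. Chromosome X gave the lowest of these for SOX2 replicate 1, over 48 regions, and the highest for SOX2 replicate 2, over just 21 regions.

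No single region was called different between SOX2 and POLII against the spread of the replicates. edgeR's quasi-likelihood test of the tag counts, with the total tags in peaks as library size, called 0 of the 2928 regions (0%) at a Benjamini-Hochberg adjusted p under 0.05. At an unadjusted p under 0.05 it gave 2 regions, both higher in SOX2. DESeq2 also called 0, and of its 33 regions at an unadjusted p under 0.05 only 7 were higher in SOX2. With TMM scaling edgeR gave 26 such regions, 4 of them higher in SOX2, and DESeq2 with total tags gave 47, of which 45 were higher. The median log2 ratio of SOX2 over POLII was 0.19, or -0.08 with TMM scaling, so the direction of the median, like that of these regions, depends on the scaling. The common dispersion of 0.532 reflects how far the lists of 1 antibody lay apart. Both SOX2 shares lay above both POLII shares in 318 regions (10.9%) and below both in 18 (0.615%), and they overlapped in 2592 (88.5%). These counts rest on the total tags in peaks and are not given for another scaling. For a single region an exact permutation test of 2 against 2 lists cannot give a p below 0.3333.

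Single regions are given by their mean shares, a measure that 1 list with an extreme value can lead. Coordinates are on mm9, the build named in the submitters' processing notes, and no genes were assigned to them, since the gene tables at hand are of another build. Among the 2928 regions, 5 were taken by mean SOX2 share and 5 by mean POLII share, with 1 region in both sets.

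Of the 5 with the highest mean SOX2 share, 4 lay on distal chromosome 6 and owed their place to SOX2 replicate 2. At chr6:142463969-142475600 the lists had 1303 tags (SOX2 replicate 2), 49 tags (SOX2 replicate 1), 230 tags (POLII replicate 2) and 121 tags (POLII replicate 1). At chr6:146672685-146677460 they had 1187, 121, 1227 and 20 tags in the same order, and at chr6:144770656-144774664 they had 1223, 28, 1054 and 37 tags. At chr6:144113384-144117059 they had 994, 52, 696 and 47 tags. SOX2 replicate 1 ranked these regions only 2270th, 1532nd, 2613th and 2242nd of 2928, so the SOX2 replicates did not share this signal, while POLII replicate 2 ranked 3 of the 4 among its first 124.

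The region chr2:98506273-98507808 was in both sets, with 723 and 586 tags in SOX2 replicates 2 and 1 and 689 and 586 in POLII replicates 2 and 1. Per 100000 tags these were 40.5, 21.2, 15.4 and 34.4, so the shares of the antibodies overlapped. Input DNA was not analysed, so it was not tested, here or at the other named regions, whether the tags reflect binding of either protein.

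Of the other 4 with the highest mean POLII share, 3 were led by POLII replicate 2 and 1 by POLII replicate 1. At chr11:62415453-62423485, a POLII peak of 8033 bp held 3500 tags in POLII replicate 2 and 64 tags were found in POLII replicate 1, beside 643 and 131 tags in SOX2 peaks of 1649 and 1376 bp. At chr11:77989373-77997563, POLII replicate 2 had 2292 tags over 8191 bp and POLII replicate 1 had 37, beside 182 and 61 SOX2 tags in peaks of 1328 and 865 bp. In both, the SOX2 peaks covered a small part of a broad POLII peak. At chr8:73415224-73422587, POLII replicates 2 and 1 had 1922 and 54 tags, and SOX2 replicate 1 had 913 tags, its highest count of the 2928 regions, over 7337 bp, against 160 tags over 1662 bp in SOX2 replicate 2. At chr2:31304060-31317349, POLII replicate 1 had 1280 tags over 12209 bp and POLII replicate 2 had 292 over 1990 bp, beside 223 and 236 SOX2 tags. That region was the strongest of POLII replicate 1 in the whole list.

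The region with the most tags in each of the other lists lacked a peak in at least 1 list, and these were picked after their values had been seen. In SOX2 replicate 2 it was chr6:145253622-145332937, a single region of 79316 bp with 40594 tags, or 2.27% of all its tags in peaks. SOX2 replicate 1 had 198 tags there, POLII replicate 1 had 159 and POLII replicate 2 had no peak. In SOX2 replicate 1 it was chr17:39979827-39985889, with 6094 tags, where SOX2 replicate 2 had 5952, POLII replicate 2 had 4056 and POLII replicate 1 had no peak. In POLII replicate 2 it was chr8:125950095-125954445, with 5883 tags, where POLII replicate 1 had 1066, SOX2 replicate 2 had 1133 and SOX2 replicate 1 had no peak. The strongest SOX2 region of replicate 2 thus lay where POLII replicate 2 had none, while that of SOX2 replicate 1 was also the third strongest of POLII replicate 2.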

How the data were processed

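The files of SOX2 and POLII were lists of peaks, deposited for each replicate apart. The lists do not show whether the authors pooled replicates for their own target genes. In each list the deposited tag number of a peak is a raw count with no scaling to the size of its library. The score deposited with each peak is 10 times the −log10 of its p-value, with no p-value above 1e-05, and the fold enrichment is a linear ratio over the authors' background. The deposited positions are 1-based and in bases of mm9, the build of the submitters' processing notes. The aligner, the peak caller, its control and its filters are not given in the sources used here, and input DNA was not analysed here.

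Peaks were merged and summed in python 3.11.15 with numpy 2.4.6, pandas 2.3.3 and scipy 1.17.1, and bedtools 2.31.1 gave the same 99134 regions. Groups followed the labels. Presence was compared over 5 bins of regions ranked by tags, signal by Spearman's rho and by the least-squares slope on the log2 scale (no pseudocount, regions with both peaks only), and length by the summed length of the called peaks. Intervals are Wilson intervals at 95.0%. These are descriptions of regions and have no test. Tag counts of the regions with a peak in all 4 lists were tested in R 4.3.3 with edgeR 4.0.16 (quasi-likelihood, total tags in peaks as library size, no normalization factors, two-sided) and DESeq2 1.42.0, with Benjamini-Hochberg adjustment. The scripts were tested on simulated peaks and counts. The named regions are the 5 with the highest mean SOX2 share and the 5 with the highest mean POLII share among regions with a peak in all 4 lists. The rule also asked for called regions, of which there were 0, and for genes and a SOX2 motif, which were not analysed here because no genome or annotation of mm9 was at hand. The alternatives were other merging, subsets and overlaps of peaks, omitted regions, other bins, other scalings, and leaving out each replicate. The regions, rules and alternatives were chosen with earlier results of these data known.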

Additional observations from a re-analysis of the deposited data

How the results depend on the processing

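Of 299 recomputed values, 288 kept their sign and moved by less than the SD over the 4 pairs (counts of calls by less than 1.5 times), 4 moved further without a change of sign and 7 changed sign. Leaving out 1 list at a time moved the mean difference in SOX2 presence between 16.0 (without POLII replicate 2) and 46.1 points, and the mean rho of shares of tags between 0.211 and 0.653, with no change of sign. The mean difference in POLII presence over SOX2 quintiles lay between -2.52 points without POLII replicate 2 and 77.2 points without POLII replicate 1, and the mean rho of tags per kb between -0.0029 and 0.503 in the same order. The direction of both therefore depends on POLII replicate 2. In single pairs, the 50% of each list with the highest score gave a rho of tags of -0.015 for SOX2 replicate 1 over POLII replicate 1 and a rho per kb of -0.117 for SOX2 replicate 2 over POLII replicate 2, and there SOX2 presence rose by 32.6 and 0.707 points for SOX2 replicates 1 and 2 over POLII replicate 2. With 10 bins, POLII replicate 1 was 5.03 points more frequent at the highest than at the lowest bin of SOX2 replicate 1. For SOX2 replicate 2 over POLII replicate 1, the rho per kb was -0.026 with 26637 peaks from every list and -0.0083 with peaks set against peaks without merging. Bins do not enter a rank correlation, so 10 bins gave no other value for length. With POLII ranked by fold enrichment, presence over POLII replicate 1 rose by 1.75 and 0.935 points for SOX2 replicates 1 and 2. The causes were not tested.

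The count of regions that edgeR called stayed at 0 in all alternatives over regions with a peak in all 4 lists. Over the 19045 regions with a peak of both replicates of either antibody it called 502, but there an uncalled peak enters as 0 tags, so a region chosen for 1 antibody starts out unequal. With a replicate block it called 0, with 0 regions at an unadjusted p under 0.05. Same-numbered SOX2 and POLII lists deviated in opposite directions (Pearson's r of -0.61 over 2928 regions), and with the pairing crossed, an alternative chosen after seeing the data, edgeR called 0, with 17 at an unadjusted p under 0.05. The depth of the libraries outside peaks is unknown, so a missing peak is not a measured absence.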

Other observations

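C-MYC, the third antibody of the study, was also more frequent at strong POLII sites. From the lowest to the highest quintile of POLII replicate 2, a peak of C-MYC replicate 1 was present at 42.5%, 62.2%, 72.1%, 84.8% and 94.4% of regions. It was more frequent with SOX2 than without it in the lowest quintile, at 65.4% of regions with a peak of SOX2 replicate 1 and 27.4% of those without. In the highest quintile these shares were 96.4% and 56.7%, the latter over just 314 regions. With and without SOX2 replicate 2 they were 67.5% and 28.9% in the lowest quintile. In the highest they were 98.5% and 83.8%, the latter over 1782 regions, so the contrast there was smaller. These are shares over regions and were not tested across samples. Ranked by POLII replicate 1, a peak of C-MYC replicate 1 was present at only 4.70% of the lowest and 18.3% of the highest quintile. Longer regions offer more bases for a C-MYC peak to touch. Regions with POLII replicate 2 alone had a median length of 577 bp, against 1143 bp where only SOX2 replicate 1 was added. C-MYC presence was not compared among regions of like length. Over the 2599 regions with a peak in all 6 lists, the C-MYC replicates had a rho of 0.984 with each other and of 0.730 and 0.732 with POLII replicate 2. SOX2 replicate 1 had 0.748 and 0.750 with them and SOX2 replicate 2 had 0.492 with C-MYC replicate 1. The likeness of SOX2 replicate 1 and POLII replicate 2, at 0.926 over these regions, was thus second to that of the C-MYC replicates among the 15 pairs of lists.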
